A study of Mus musculus with 21 samples.

Results

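Whole testes at gestation day 14 (gd14, Theiler stage 22) were compared with testes at gestation day 11 (gd11, Theiler stage 18). The comparison rests on 8 of the 21 arrays in the series, taken by their stage label: 3 arrays labelled gd14, with replicate numbers 10 to 12, and 5 labelled gd11, numbered 16 to 20. All 8 held total RNA from testes of male fetuses of CD-1, an outbred mouse stock with no altered gene, and none had been treated. The sample labels give pools of 2 for each gd11 array and no pooling at gd14, so that the spread at gd11 is between pools. The design text of the series describes triplicates of single animals throughout, which does not match the 5 pooled gd11 arrays, and the sample labels were used here. Where the labels do not say which animals or litters the arrays came from, p-values measure only the spread between these arrays, which may in part be technical.

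In the male mouse, the Y-linked gene Sry is switched on for a short time in the supporting cells of the early gonad, which lies along the mesonephros, the embryonic kidney. These cells become Sertoli cells, enclose the germ cells in cords and secrete anti-Müllerian hormone, which makes the Müllerian ducts regress. Fetal Leydig cells then appear between the cords and make androgen from cholesterol. Germ cells enclosed in cords leave the primordial state, stop dividing and start a male program that includes the piRNA pathway and new DNA methylation, whereas those of the ovary enter meiosis. The comparison sets the gonad at the time of sex determination against the testis with formed cords.

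Levels are intensities in array units, with 1 value per probe set, and are listed in the order of replicates 16 to 20 for gd11 and 10 to 12 for gd14. Levels of different genes are not comparable, because each probe set has its own response. An intensity under the 40th percentile of its own array, 63.4 to 78.2 on these 8 and 71.4 over the testis arrays together, is described as below the background line. Changes are gd14 minus gd11 on the scale log2(intensity + 22.4), with the standard error (SE) of the fit and the p-value of limma adjusted over 24560 probe sets. A gene was called higher or lower when the adjusted p was below 0.05. Changes of dim genes come out too small on this scale, so where every array of a stage lay below the background line a lower bound on the fold is given as "at least N-fold". In whole-organ RNA, more cells of a type and more transcript per cell cannot be told apart.

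The gd11 arrays were not alike. Over all probe sets except controls, replicates 16 and 17 correlated at 0.967 with each other, replicates 18, 19 and 20 at 0.969 to 0.972, and the former with the latter at 0.934 to 0.957. The gd14 arrays correlated at 0.971 to 0.974. The median SD of the log2 values of a gene was 0.245 at gd11, 0.164 over gd11 replicates 18 to 20 alone and 0.149 at gd14. The summed intensity of the 21 tested genes of a neural list was 126423, 74951, 15289, 15632 and 21332 at gd11 and 4645, 4938 and 4891 at gd14. Replicates 16 and 17 thus carried several times the neural signal of the other gd11 arrays. The summed intensity of 20 mesonephros and duct genes was 10194, 13550, 22948, 29918 and 18298 at gd11 and 8080, 7937 and 7213 at gd14, highest in replicates 18, 19 and 20. Counts are therefore also given without replicates 16 and 17, and the part of such tissue in the other changes was not tested. Ratios of 3' to 5' signal for beta-actin, a measure of RNA integrity, were 1.19 to 1.29 at gd11 and 1.29 to 1.40 at gd14, whereas those for Gapdh went the other way, 0.717 to 0.813 and 0.681 to 0.723.

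**Figure D1:**
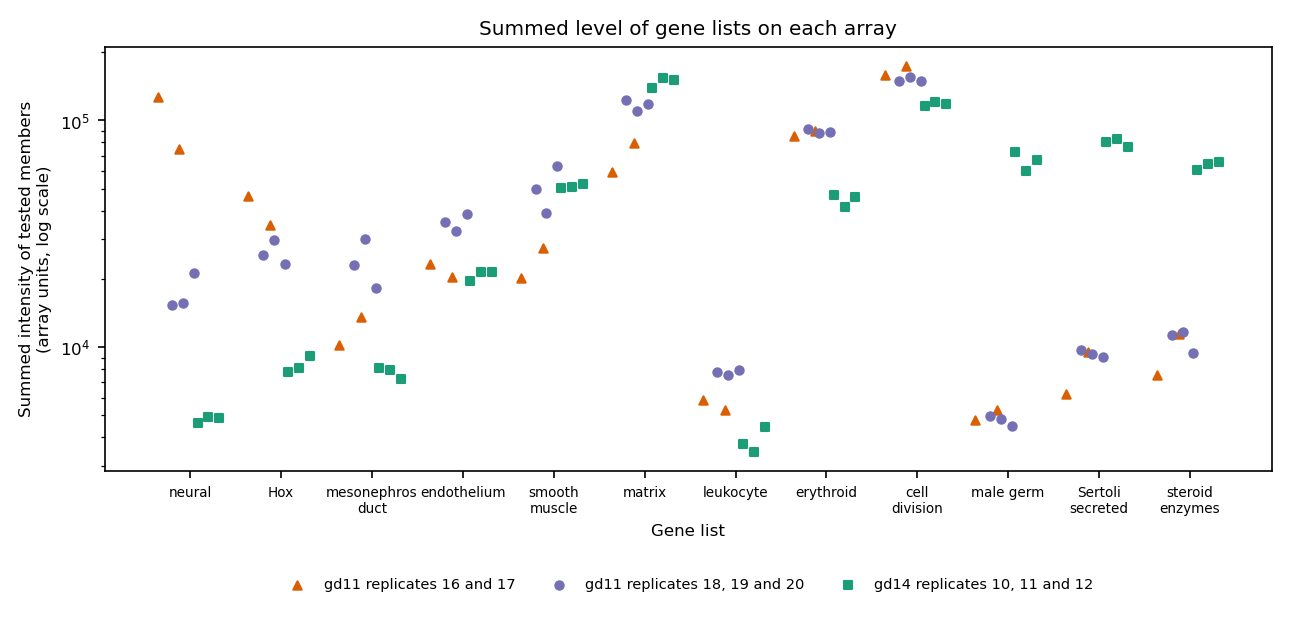
Summed intensity (array units, log scale) of the tested members of 12 gene lists on each of the 8 arrays; triangles are gd11 replicates 16 and 17, circles gd11 replicates 18 to 20 and squares gd14 replicates. Sums of different lists are not comparable with each other. The neural sum of replicates 16 and 17, 126423 and 74951, lies above the 15289 to 21332 of the other gd11 arrays.

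The genes chosen to mark the comparison were all called higher at gd14. Amh (probe set 1450573_at), the gene of anti-Müllerian hormone, stood at 30.5, 7.45, 3.19, 4.02 and 2.89 at gd11 and 990, 1752 and 1456 at gd14. Every gd11 value lay below the background line and every gd14 value above it (log2 change 5.50 ± 0.30 SE, adjusted p = 2.5e-06), a rise of at least 20.3-fold. Cyp17a1 (1417017_at), which makes the precursors of androgens, stood at 8.33, 3.81, 5.66, 9.21 and 6.88 at gd11 and 16564, 16806 and 17994 at gd14. It was below the line on all gd11 arrays, and the rise was at least 255-fold (log2 change 9.20 ± 0.13 SE, adjusted p = 2.71e-10). Dnmt3l (1425035_s_at), which helps to set new DNA methylation marks in male germ cells, stood at 8.22, 7.49, 6.82, 21.8 and 7.45 at gd11 and 1356, 966 and 1341 at gd14. Its gd11 values were again all below the line, and the rise was at least 18-fold (log2 change 5.25 ± 0.23 SE, adjusted p = 5.86e-07). Dazl (1449502_at), an RNA-binding protein of germ cells, stood at 226, 433, 411, 276 and 165 at gd11 and 9386, 7587 and 7521 at gd14. It was above the line on every gd11 array, and the stages did not overlap (log2 change 4.73 ± 0.27 SE, adjusted p = 3.16e-06).

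**Figure D2:**
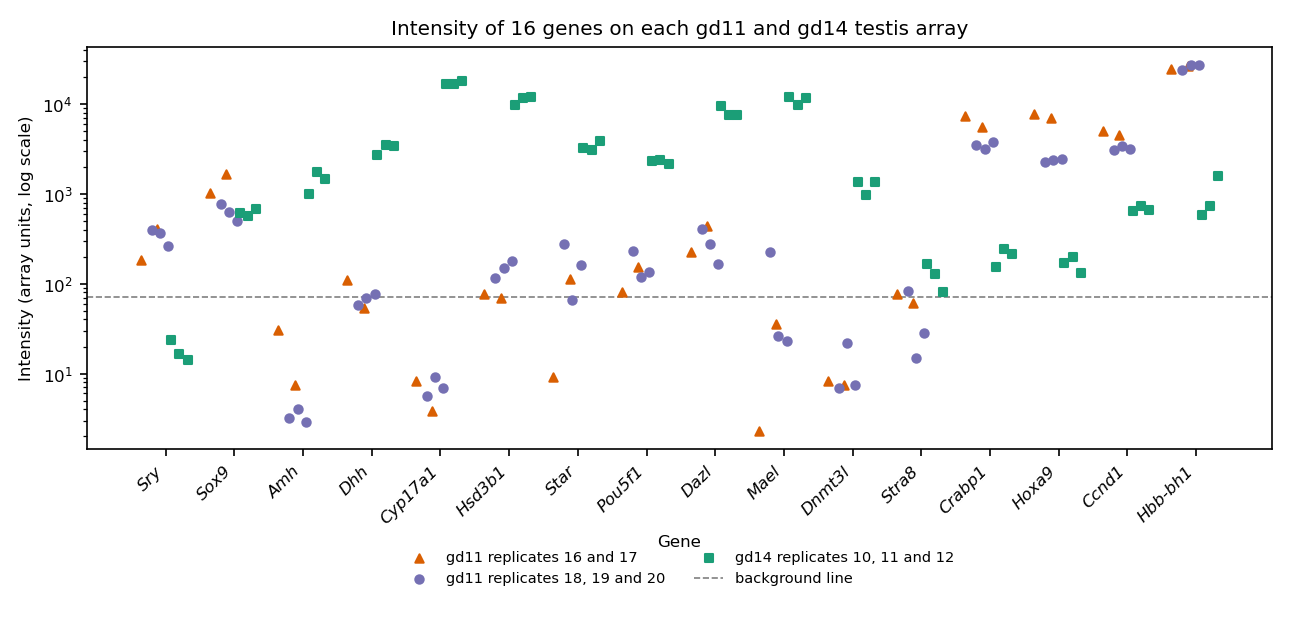
Intensity (array units, log scale) of 16 genes on each array; triangles are gd11 replicates 16 and 17, circles gd11 replicates 18 to 20, squares the 3 gd14 replicates, and the dashed line is the background line at 71.4. Amh, Cyp17a1 and Dnmt3l lie below the line on all 5 gd11 arrays and between 966 and 17994 on the gd14 arrays, whereas Sry falls below the line at gd14 and the stages overlap for Sox9 and Stra8.

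Of 13220 genes tested, 2688 (20.3%) were called higher and 2260 (17.1%) lower at gd14, 4948 (37.4%) in all. At least 2-fold changes were called for 1134 genes (8.58%) upwards and 688 (5.2%) downwards. Among probe sets, 4261 of 24560 (17.3%) were higher and 3902 (15.9%) lower, 8163 (33.2%) in all. The gd14 range lay wholly above the gd11 range for 3039 genes (23%) and wholly below it for 2522 (19.1%), and 4692 of the 4948 called genes had ranges that did not overlap. Without gd11 replicates 16 and 17, 3063 genes (23.2%) were higher and 2825 (21.4%) lower. Of the calls made with all 8 arrays, 2542 upward and 2081 downward calls were made again and 0 were made in the opposite direction; 146 upward and 179 downward calls were lost, and 521 and 744 were added. The median log2 change over all genes was 0.02, and 0.01 without replicates 16 and 17. A gene seen only at gd14 could pass the filter through its 3 gd14 arrays, so counts within a list of such genes describe its tested members and support nothing further. At an unadjusted p below 0.05 limma gave 6342 genes. Of 762 genes in 33 lists, 699 had a probe set of their own and 627 were tested; some genes stand in several lists. Counts within each list below are to be read beside the 20.3% and 17.1% of all genes. Below, a list with 0 calls one way also had 0 genes that way at an unadjusted p below 0.05, except 2 higher endothelial genes, 2 higher leukocyte genes, 1 lower smooth muscle gene and 2 lower prostaglandin genes.

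**Figure D3:**
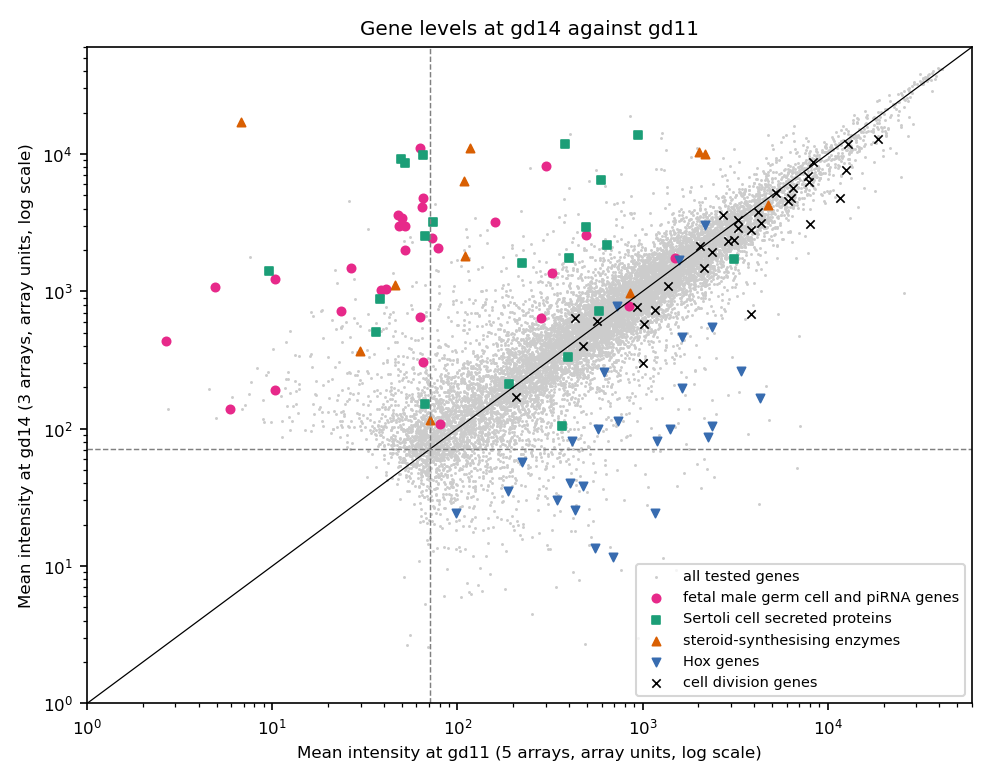
Mean intensity of each tested gene at gd14 (3 arrays) against gd11 (5 arrays), in array units on log scales; grey points are all 13220 genes, symbols mark members of 5 lists, the solid line is equality and the dashed lines are the background line. Members of the male germ cell, Sertoli and steroid enzyme lists lie mostly above the line of equality, Hox genes mostly below it, and cell division genes close to it.

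Of 25 tested factors of gonad formation and sex determination, 7 were higher, 6 lower and 12 not called. Of all genes, 20.3% were higher and 17.1% lower. Without gd11 replicates 16 and 17, 8 factors were higher and 10 lower, where 23.2% and 21.4% of all genes were. Sry (1450579_x_at) stood at 182, 401, 397, 369 and 264 at gd11 and 23.9, 16.5 and 14.3 at gd14. All gd11 arrays were above the background line and all gd14 arrays below it, a fall of at least 4.19-fold (log2 change -3.04 ± 0.27 SE, adjusted p = 4.28e-05). Sox9, the transcription factor that Sry switches on, stood at 1012, 1652, 764, 634 and 501 at gd11 and 614, 567 and 684 at gd14, with overlapping stages and no call (log2 change -0.42 ± 0.32 SE, adjusted p = 0.339); without gd11 replicates 16 and 17, its 2 brightest arrays, the change was -0.01. Sox8, its close relative, was low at 7.56 to 52.3 at gd11 and 124 to 187 at gd14 and rose at least 2.21-fold. Nr5a1, the orphan nuclear receptor SF-1 that activates steroidogenic genes, stood at 206, 725, 677, 379 and 415 at gd11 and 1798, 2461 and 1970 at gd14. Its 3 gd14 arrays were all above the gd11 arrays (log2 change 2.17 ± 0.34 SE, adjusted p = 0.00111). Dmrt1, a factor of Sertoli and germ cells, rose by 3.16 ± 0.34 and Gata4, a factor of gonadal somatic cells, by 1.68 ± 0.42; Gata4 was not called without gd14 replicate 12 (adjusted p = 0.0528). Vnn1, a pantetheinase of Sertoli cells, was the largest rise of the list, from 242 to 707 at gd11 to 6246 to 6484 at gd14.

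Several early gonad factors gave values that depended on which gd11 arrays were used. Wt1, Emx2 and Gata6, transcription factors of the early gonad, were not called with all arrays, with changes of -0.42 ± 0.44, -1.21 ± 0.49 and -0.24 ± 0.56. Each was lowest in gd11 replicate 16, at 1086 to 5835 at gd11 and 2245 to 2738 at gd14 for Wt1. Without replicates 16 and 17 all 3 were called lower, with changes of -0.95, -1.81 and -0.94, and without replicate 16 alone each was called lower too: Wt1 was called without gd11 replicate 16 (adjusted p = 0.00808), Emx2 was called without gd11 replicate 16 (adjusted p = 0.000285) and Gata6 was called without gd11 replicate 16 (adjusted p = 0.0404). Lhx9, also needed for gonad formation, was not called (0.54 ± 0.34), nor was Nr0b1, the gene of DAX-1 (0.22 ± 0.39). Lmx1a fell at least 1.89-fold, to below the line on every gd14 array. Fgfr2, a receptor for Fgf9, fell from 1633 to 2122 at gd11 to 1006 to 1116 at gd14 (log2 change -0.85 ± 0.11 SE, adjusted p = 0.000267), while Fgf9 itself, a growth factor that sustains Sox9, stood at 127 to 239 at gd11 and 164 to 267 at gd14 and was not called.

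Products that Sertoli cells secrete were among the largest rises. Of 21 tested members, 16 were higher and 2 lower, where 20.3% and 17.1% of all genes were. Their median log2 change was 3.49, and 0.02 over all genes. Among the 12 members above the background line on all 8 arrays, 7 were higher and 2 lower with a median of 1.96; the others were below it on at least 1 array. Defb19, a beta-defensin, stood at 5.65, 65.8, 53.1, 77.8 and 44.3 at gd11 and 9298, 11127 and 6937 at gd14. Ptgds, a prostaglandin D synthase, stood at 101, 10, 88.5, 27.4 and 34.2 at gd11 and 6952, 9972 and 8734 at gd14. Cst9, a cystatin, stood at 45.8, 103, 90.2, 20.8 and 66.8 at gd11 and 13599, 8036 and 8042 at gd14. These 3 were at or near the background line at gd11 and at 6937 or above on every gd14 array, with log2 changes of 7.09 ± 0.37, 7.01 ± 0.40 and 6.87 ± 0.34 (adjusted p = 1.8e-06, 3.17e-06 and 1.25e-06). Dhh (1434959_at), the hedgehog ligand of Sertoli cells, stood at 111, 53.1, 57.6, 68.5 and 76.5 at gd11 and 2727, 3500 and 3419 at gd14, with no overlap (log2 change 5.10 ± 0.20 SE, adjusted p = 3.73e-07). Aard, a gene of unknown biochemical role, was already above the line at gd11 and went from 279 to 487 at gd11 to 10829 to 13191 at gd14 (log2 change 4.89 ± 0.16 SE, adjusted p = 1.59e-07). Clu, the chaperone clusterin, rose by 4.04 ± 0.43, and Col9a3, a collagen IX chain, by 4.85 ± 0.29.

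Among secreted factors that act on germ cells or on hormone axes, Gdnf, a ligand of the Ret receptor, stood at 8.2, 2.86, 6.44, 157 and 6.02 at gd11 and 354, 704 and 465 at gd14. Replicate 19 was the only gd11 array above the background line (log2 change 3.64 ± 0.61 SE, adjusted p = 0.00154). The inhibin alpha gene Inha and the beta-B gene Inhbb rose by 3.49 ± 0.33 and 2.71 ± 0.40. The beta-A gene Inhba, from 12.4 to 369 at gd11 to 565 to 902 at gd14, rose by 2.06 ± 0.64 with its lowest gd11 value in replicate 16; it was not called when any 1 of gd11 replicate 17 and gd14 replicates 10, 11 and 12 was left out (adjusted p 0.0512 to 0.115), and its change was 1.37 without replicates 16 and 17. Fst, the gene of follistatin, which binds activins, went the other way, from 306 to 493 at gd11 to 83.4 to 129 at gd14 (log2 change -1.62 ± 0.19 SE, adjusted p = 0.000221). Kitl, the ligand of the Kit receptor, fell by 0.83 ± 0.27 on the log2 scale (adjusted p = 0.0382) but was not called when any 1 of gd11 replicates 17, 18, 19 and 20 and gd14 replicates 11 and 12 was left out (adjusted p 0.0606 to 0.146). Of the 19 tested Sertoli genes of the cell surface, signalling and nucleus, 11 were higher, 2 lower and 6 not called, with a median log2 change of 1.90. Without gd11 replicates 16 and 17, 14 were higher and 2 lower. Of the 12 above the background line on all 8 arrays, 5 were higher and 2 lower, with a median of 0.10. Tesc, the calcium-binding protein tescalcin, was the largest at 12.8, 88.9, 30, 89.6 and 55 at gd11 and 2444, 2803 and 2242 at gd14 (log2 change 5.15 ± 0.36 SE, adjusted p = 1.06e-05). Fshr, the receptor of follicle-stimulating hormone, stayed dim, at 3.26 to 30.7 at gd11 and 95.8 to 127 at gd14, and rose at least 1.67-fold. Dapk1, a death-associated kinase, and Cldn5, a tight junction claudin that is also endothelial, fell by 0.79 and 0.75 on the log2 scale; Cldn5 was not called when any 1 of gd11 replicates 18 and 19 and gd14 replicates 10 and 12 was left out (adjusted p 0.0548 to 0.121).

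Genes of steroid synthesis rose: 8 of 11 were higher, with and without gd11 replicates 16 and 17, and the median log2 change was 2.94; of the 6 above the background line on all 8 arrays, 4 were higher. Cyp11a1, which cuts the cholesterol side chain at the start of the pathway, stood at 14.6, 149, 117, 92.1 and 168 at gd11 and 6326, 6324 and 6250 at gd14. The gd14 arrays were almost equal, and the lowest gd11 value was in replicate 16 (log2 change 5.79 ± 0.45 SE, adjusted p = 1.95e-05). Hsd3b1, a 3-beta-hydroxysteroid dehydrogenase with near-identical relatives that a probe set may not separate, stood at 76.8, 69.6, 116, 148 and 177 at gd11 and 9624, 11512 and 11844 at gd14 (log2 change 6.36 ± 0.25 SE, adjusted p = 3.73e-07). Hsd17b3, which makes testosterone and is made in Sertoli cells of the fetus, rose by 4.12 ± 0.29. Hsd17b1, a related enzyme, rose at least 5.29-fold, from 5 to 57 at gd11 to 277 to 496 at gd14. The electron carrier Fdx1, which serves the mitochondrial enzymes, rose from 1450 to 2552 at gd11 to 9887 to 11158 at gd14 (log2 change 2.36 ± 0.15 SE, adjusted p = 6.53e-06), while Cyb5a, a cofactor of Cyp17a1, was not called (-0.15 ± 0.10). Among adrenal genes Cyp11b1, an 11-beta-hydroxylase, was the 1 of 13 tested that was higher, by at least 5.43-fold (log2 change 2.91 ± 0.36 SE, adjusted p = 0.000253), and Cyp21a1, the adrenal 21-hydroxylase, was not called at 43.1 to 110 at gd11 and 85.7 to 196 at gd14.

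Star, Scarb1 and Gramd1b, which handle cholesterol, rose as well. Star, which moves cholesterol into mitochondria, stood at 9.14, 112, 273, 66.5 and 163 at gd11 and 3274, 3081 and 3855 at gd14, lowest in gd11 replicate 16, with no overlap (log2 change 4.88 ± 0.58 SE, adjusted p = 0.000213). Scarb1, the HDL receptor, stood at 649 to 858 at gd11 and 6900 to 7255 at gd14 (log2 change 3.20 ± 0.11 SE, adjusted p = 1.59e-07), and Gramd1b, a cholesterol transporter, rose by 2.00 ± 0.14. Tmem184a rose by 4.40 ± 0.40 and Agt, angiotensinogen, by at least 6.93-fold. Of the 15 tested genes of a mixed Leydig cell list, which also holds receptors, hormones and signalling genes, 9 were higher and 0 lower; without replicates 16 and 17 the counts were 10 and 2. Of 21 tested genes of cholesterol synthesis, 7 were higher and 0 lower, with a median log2 change of 0.32. The largest were Dhcr7, the last reductase of the pathway, at 1.46 ± 0.15, Fdps, farnesyl diphosphate synthase, at 0.86 ± 0.15, and Msmo1, a sterol oxidase, at 0.83 ± 0.15. For 13 of the 21 the 2 highest gd11 values were in replicates 16 and 17, and without them 13 were higher. With 1 array left out the count was 4 without gd11 replicate 20 or gd14 replicate 10 or 12, and 11 without gd11 replicate 16.

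The RefSeq promoter of Hsd3b1 (GRCm38.p6, minus strand, chr3:98859795-98860044, the 250 bases before the start) is shown because its letters hold the GATA motif AGATAA, read on either strand and marked in capitals, from base -134 to -129. Amh, Cyp17a1 and Star are not in the promoter table and are not analysed here.
Hsd3b1: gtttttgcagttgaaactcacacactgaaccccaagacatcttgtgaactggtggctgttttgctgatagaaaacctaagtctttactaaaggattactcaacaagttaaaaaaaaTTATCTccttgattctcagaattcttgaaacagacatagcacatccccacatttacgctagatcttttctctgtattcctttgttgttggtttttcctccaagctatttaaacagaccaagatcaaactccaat
The motif was found in the 300-base windows (250 before and 50 after the start) of 2 of the 8 steroid enzymes with a window, Hsd3b1 and Akr1cl, in 22.2% of 9 windows against 6.44% of 13627 windows of tested genes. The SF-1 motif CAAGGNCA was found in 11.1% of these windows, that of Akr1cl alone, against 4.94%, and in none of 16 windows of Sertoli secreted genes. The windows of the steroid enzymes held few CpG pairs, with a median observed over expected ratio of 0.193 against 0.737.

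Genes of male germ cells were mostly higher. Of 29 tested fetal male germ cell, piRNA and DNA methylation genes, 26 were higher and 0 lower (median log2 change 4.23), with the same counts without gd11 replicates 16 and 17. Only 7 of them were above the background line on all 8 arrays, of which 5 were called higher (median 2.02); the others were below it on at least 1 array. Mael, a piRNA pathway protein, stood at 2.31, 35.8, 225, 26 and 23.1 at gd11 and 11972, 9629 and 11532 at gd14. Replicate 18 was the only gd11 array above the background line, and the lowest gd14 array was at 9629 (log2 change 7.52 ± 0.58 SE, adjusted p = 1.91e-05). Ddx4, the germ cell helicase known as VASA, stood at 46.3, 85, 75.1, 87.3 and 33 at gd11 and 5409, 4503 and 4418 at gd14. It was at 87.3 or below on every gd11 array, and its rise was 5.82 ± 0.24 (adjusted p = 4.47e-07). Morc1, which represses transposons in male germ cells, stood at 4.63, 59.9, 69.9, 47.6 and 56.7 at gd11 and 3607, 3251 and 3879 at gd14, a rise of at least 53.2-fold. Tex101, a surface protein of germ cells, went from 2.36 to 8.53 at gd11 to 843 to 1219 at gd14, at least 15.9-fold.

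Among the piRNA binding proteins, Piwil2, of fetal germ cells, stood at 68.1, 92.8, 88.5, 67.1 and 46.8 at gd11 and 2616, 2335 and 2389 at gd14 (log2 change 4.72 ± 0.18 SE, adjusted p = 3.73e-07). Piwil4, the nuclear Piwi protein, stood at 3.17, 26.4, 41, 9.93 and 37.6 at gd11 and 929, 556 and 678 at gd14, below the background line on all gd11 arrays and at least 10.5-fold higher. Piwil1, which acts later in spermatogenesis, stood at 2.01 to 15.7 at gd11 and 122 to 150 at gd14 and rose at least 2.05-fold. The Tudor proteins Tdrd1, Tdrd5, Tdrd7, Tdrd9 and Tdrd12, which bind Piwi proteins, all rose. Tdrd1 and Tdrd9 were below the background line on every gd11 array and rose at least 6.36-fold and 15.5-fold, and Tdrd5, Tdrd7 and Tdrd12 rose by 5.57, 2.02 and 2.97 on the log2 scale. Tdrd1 was below 4 on every gd11 array and 322 to 559 at gd14. The helicase Mov10l1 rose at least 29.8-fold, and Asz1 and Gtsf1, further piRNA factors, by 4.40 ± 0.21 and 5.43 ± 0.33. Tdrkh rose by 1.22 ± 0.39 but was not called when any 1 of gd11 replicates 18, 19 and 20 and gd14 replicates 10 and 12 was left out (adjusted p 0.0645 to 0.139); its highest gd11 values were in replicates 16 and 17, and its change was 1.76 without them. The methyltransferases Dnmt3a and Dnmt3b, which Dnmt3l assists, were not called, at 1347 to 1621 at gd11 and 1567 to 1875 at gd14 and at 691 to 983 at gd11 and 748 to 815 at gd14.

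The promoters of Dazl, Mael and Tex101 (RefSeq, GRCm38.p6, minus strand, chr17:50293621-50293870, chr1:166238745-166238994 and chr7:24672051-24672300) are shown because they belong to genes of this list that rose by over 4 log2 units. The 250 bases before the start are given, with each CpG in capitals.
Dazl: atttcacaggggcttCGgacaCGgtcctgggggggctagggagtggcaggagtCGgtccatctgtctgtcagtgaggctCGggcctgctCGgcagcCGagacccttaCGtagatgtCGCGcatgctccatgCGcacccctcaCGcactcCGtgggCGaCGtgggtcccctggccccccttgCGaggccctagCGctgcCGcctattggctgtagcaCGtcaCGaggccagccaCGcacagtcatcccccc
Mael: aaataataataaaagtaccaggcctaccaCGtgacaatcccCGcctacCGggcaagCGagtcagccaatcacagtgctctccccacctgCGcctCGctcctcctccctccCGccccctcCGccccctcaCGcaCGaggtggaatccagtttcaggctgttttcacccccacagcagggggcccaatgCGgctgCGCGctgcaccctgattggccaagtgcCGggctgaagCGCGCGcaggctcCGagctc
Tex101: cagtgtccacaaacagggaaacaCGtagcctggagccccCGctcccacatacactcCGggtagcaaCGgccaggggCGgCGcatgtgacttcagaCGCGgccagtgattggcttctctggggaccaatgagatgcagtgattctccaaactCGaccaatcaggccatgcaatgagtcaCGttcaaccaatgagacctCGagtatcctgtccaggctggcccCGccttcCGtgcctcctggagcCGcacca
They hold 20, 18 and 14 CpG pairs. Over 38 windows of 26 genes of the list the median observed over expected CpG ratio was 0.684. Over 19 windows of meiosis genes it was 0.716, both close to the 0.737 of all windows. The ratio lay above 0.6 in 57.9% of the windows of the list and 84.2% of the meiosis windows, against 66.6% of all. The windows of Dazl, Mael and Tex101 had ratios of 0.795, 0.78 and 0.7, above the median of their list. The E-box TCACGTGA was found in the window of Nxf2 only, 2.63% of windows against 1.7%.

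Genes of primordial germ cells and pluripotency rose as well, 22 of 29, with 0 lower and a median log2 change of 1.77. Dppa3, known as Stella, stood at 284, 464, 584, 311 and 387 at gd11 and 14522, 13541 and 13972 at gd14, and Dppa4, a chromatin factor, at 128, 265, 387, 265 and 188 at gd11 and 7579, 7934 and 7989 at gd14. Both were above the background line on every gd11 array and rose by 5.08 ± 0.20 and 4.95 ± 0.27 (adjusted p = 4e-07 and 2.05e-06). Pou5f1, the pluripotency factor Oct4, stood at 80, 154, 231, 119 and 135 at gd11 and 2303, 2367 and 2122 at gd14 (log2 change 3.84 ± 0.25 SE, adjusted p = 6e-06). Dnd1, an RNA-binding protein that germ cells need to survive, rose by 4.04 ± 0.21. Nanog, a pluripotency factor, stood at 51.7, 63.8, 97.5, 49.6 and 69.3 at gd11 and 378, 225 and 246 at gd14, and its lowest gd14 value was above its highest gd11 value (log2 change 1.77 ± 0.25 SE, adjusted p = 0.000561). The Nodal pathway genes Nodal, Lefty1 and Lefty2 all rose, by 2.16 ± 0.32 and 2.04 ± 0.39 for the former pair and at least 5.17-fold for Lefty2. Prdm1, which specifies germ cells, rose by 1.29 ± 0.15.

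Members of that list that were not called include Kit, the receptor of migrating germ cells, at 456 to 872 at gd11 and 508 to 594 at gd14, and Sox2. Sox2, which neural tissue also expresses, stood at 7643, 5781, 441, 240 and 402 at gd11 and 1758, 1183 and 1220 at gd14. Replicates 16 and 17 were the highest of all 8 arrays and the other gd11 arrays the lowest; the change was 0.23 ± 1.08 with all arrays and 1.90 without these 2, where it was called higher (adjusted p = 6.46e-05). Uchl1, a ubiquitin hydrolase of spermatogonia and neurons, stood at 3246, 1773, 466, 461 and 606 at gd11 and 2836, 2354 and 2841 at gd14, highest of the gd11 arrays in replicates 16 and 17, with 1.47 ± 0.59 and no call against 2.35 and a call without replicates 16 and 17 (adjusted p = 3.82e-07); it was called without gd11 replicate 16 (adjusted p = 0.00368). Of 18 tested spermatogonial genes 9 were higher and 3 lower. Egr4, a transcription factor, rose at least 8.09-fold, Taf4b, a subunit of the general transcription machinery, by 3.06 ± 0.16, and Sohlh1, a germ cell factor, at least 3.74-fold. The receptors of Gdnf went the other way: Ret stood at 872, 288, 267, 280 and 363 at gd11 and 124, 47.6 and 70.4 at gd14 and Gfra1 at 821, 396, 150, 217 and 174 at gd11 and 59, 57.3 and 71.5 at gd14. Both were highest in replicate 16. Ret fell by 2.00 on the log2 scale and Gfra1 at least 3.85-fold with all arrays (adjusted p = 0.00337 and 0.0119), with fitted log2 changes of -1.71 and -1.24 without replicates 16 and 17. Thy1, a surface antigen of spermatogonia and stroma, fell by 0.99 ± 0.32 but was not called when any 1 of gd11 replicates 17, 18 and 19 and gd14 replicates 10, 11 and 12 was left out (adjusted p 0.0611 to 0.144).

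Many meiosis genes were higher: 15 of 19 tested, with 0 lower, while 9 further genes of the list did not pass the filter. Of the 6 above the background line on all 8 arrays, 5 were higher. Tex12, a protein of the synaptonemal complex that joins paired chromosomes, stood at 7.39, 2.28, 7.34, 6.02 and 15 at gd11 and 2209, 1476 and 1630 at gd14, at least 26-fold higher. Sycp3, of the same complex, stood at 54, 75.4, 61, 42.2 and 51.4 at gd11 and 2517, 2147 and 2181 at gd14 (log2 change 4.87 ± 0.17 SE, adjusted p = 1.59e-07). Sycp1, Sycp2 and Syce1, further subunits, rose at least 9.37-fold, 12.9-fold and 8.77-fold. Spo11, the enzyme that makes meiotic double-strand breaks, stood at 3.94 to 24.5 at gd11 and 172 to 360 at gd14, at least 3.69-fold. Stra8, the gene that retinoic acid switches on before meiosis, stood at 76.8, 60.8, 83.5, 14.8 and 28.3 at gd11 and 164, 127 and 80.9 at gd14. Its stages overlapped and it was not called (log2 change 1.03 ± 0.39 SE, adjusted p = 0.0695); without replicates 16 and 17 it was called higher (1.28, adjusted p = 0.0302), and it was called without gd11 replicate 16 (adjusted p = 0.0458). Rec8, the meiotic cohesin, was not called (1.02 ± 0.45), and Dmc1, a strand exchange protein, rose at least 1.54-fold but was not called without gd14 replicate 12 (adjusted p = 0.0761). The cyclic AMP motif TGACGTCA was in none of 19 windows of the list, against 2.91% of all.

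Genes that handle retinoic acid were more often lower than higher. Cyp26b1, the enzyme that breaks retinoic acid down in the fetal testis, stood at 304, 447, 631, 342 and 273 at gd11 and 1670, 1887 and 1668 at gd14 (log2 change 2.12 ± 0.24 SE, adjusted p = 0.000139). Among the enzymes that make it, Aldh1a1 stood at 121, 750, 1419, 1141 and 851 at gd11 and 19026, 19211 and 18834 at gd14, lowest in gd11 replicate 16 (log2 change 4.78 ± 0.62 SE, adjusted p = 0.000348), whereas Aldh1a2 fell from 3440 to 9893 at gd11 to 1928 to 2653 at gd14 (log2 change -1.38 ± 0.32 SE, adjusted p = 0.00864). Rdh10, which makes the retinal precursor, fell by 0.77 on the log2 scale, and the uptake receptor Stra6 by 2.35. The binding proteins Crabp1 and Crabp2 stood at 7273, 5553, 3462, 3119 and 3741 at gd11 and 152, 245 and 215 at gd14 and at 10958, 6632, 2659, 3698 and 2940 at gd11 and 689, 747 and 611 at gd14. Both were highest in replicates 16 and 17 and lower on every gd14 array than on any gd11 array (-4.31 ± 0.27 and -2.72 ± 0.41, adjusted p = 5.39e-06 and 0.000822). The receptor Rarb, itself a target of retinoic acid, fell from 994 to 1706 at gd11 to 69.8 to 108 at gd14 (log2 change -3.46 ± 0.20 SE, adjusted p = 3.16e-06), while Rara and Rarg, at 0.34 ± 0.23 and 0.27 ± 0.20, were not called. In all 2 of 16 tested were higher and 8 lower, the same counts as without replicates 16 and 17.

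In the hedgehog pathway Dhh and 3 target genes rose, while Gli3 and Gas1 fell. With PDGF genes the list gave 6 higher and 5 lower of 19 tested, or 3 lower when any 1 gd14 array was left out. Shh, the ligand of neural and gut tissue, was not called, at 2147, 1281, 342, 528 and 146 at gd11 and 205, 210 and 335 at gd14, highest in replicates 16 and 17 (-1.23 ± 0.70); it was called without gd11 replicate 20 (adjusted p = 0.0437). The target genes Ptch1, Gli1 and Hhip rose by 1.24 ± 0.12, 1.23 ± 0.18 and 2.86 ± 0.34 (adjusted p = 6.34e-05, 0.000764 and 0.000207). Ptch1, the receptor, stood at 3463, 2894, 2585, 3623 and 2906 at gd11 and 8125, 6865 and 6982 at gd14 and Hhip, a decoy receptor, at 136, 75.2, 140, 139 and 34.3 at gd11 and 866, 860 and 778 at gd14. On the other side Gli3, which acts mainly as the pathway's repressor, fell from 1304 to 1839 at gd11 to 764 to 960 at gd14 (log2 change -0.91 ± 0.13 SE, adjusted p = 0.000754) and the co-receptor Gas1 from 8364 to 11438 at gd11 to 4874 to 5762 at gd14 (log2 change -0.96 ± 0.10 SE, adjusted p = 0.000121). Among PDGF genes Pdgfc, a ligand, fell by 1.56 on the log2 scale, while Pdgfa, the ligand of Sertoli cells, was not called (0.42 ± 0.34) and its receptor Pdgfra rose by 0.90 ± 0.26 (0.58 without replicates 16 and 17) but was not called when any 1 of gd14 replicates 10, 11 and 12 was left out (adjusted p 0.0523 to 0.0804).

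Among Wnt genes Wnt5a and Wnt6, both ligands, rose by 1.87 ± 0.37 and 1.80 ± 0.24, and Sfrp4, a secreted antagonist, by 1.36 ± 0.27. Wnt4, which supports ovarian fate, fell from 1331 to 3709 at gd11 to 904 to 963 at gd14 (log2 change -1.34 ± 0.28 SE, adjusted p = 0.0055), and Wnt9b, a ligand of the mesonephric duct, fell at least 3.94-fold. The antagonists Notum, which removes the lipid of Wnt proteins, and Dkk2 fell, by 2.02 on the log2 scale and at least 1.92-fold. The list gave 4 higher and 7 lower of 23 tested, or 5 and 9 without gd11 replicates 16 and 17. Of 19 tested ovary and pre-granulosa genes 1 was higher, Esr2, an oestrogen receptor gene (at least 1.54-fold), and 6 were lower; without gd11 replicates 16 and 17 the counts were 3 and 7. Foxl2, the defining factor of the ovary, stood at 103 to 193 at gd11 and 155 to 240 at gd14 and was not called (0.32 ± 0.23). Irx3 stood at 2776, 1390, 486, 682 and 346 at gd11 and 83.1, 68 and 56.8 at gd14, highest in replicate 16, and fell by 3.27 on the log2 scale (adjusted p = 0.00181). Rspo1, a Wnt amplifier, was not called with all arrays (-0.33 ± 0.43), but without replicates 16 and 17 it was called lower (-0.82), and it was called without gd11 replicate 16 (adjusted p = 0.00852).

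Of the 31 tested Notch, activin, BMP and FGF genes, 4 were higher and 10 lower, or 5 and 14 without gd11 replicates 16 and 17. Without gd14 replicate 10 the counts were 1 and 6, without replicate 12 they were 2 and 6, and without replicate 11 the higher count was 2. Bmp4, a ligand, fell from 530 to 1526 at gd11 to 239 to 356 at gd14 (log2 change -1.58 ± 0.30 SE, adjusted p = 0.00316). The BMP target genes Id1, Id2 and Id3 fell by 1.19, 1.58 and 1.20 on the log2 scale (adjusted p = 0.00069, 0.000601 and 0.00126). Id2 stood at 3365, 4559, 5563, 6684 and 6469 at gd11 and 1885, 1331 and 1999 at gd14, lowest of the gd11 arrays in replicate 16 and with no overlap between the stages. Spry4, a feedback inhibitor of FGF signalling, rose by 1.12 ± 0.28 but was not called without gd14 replicate 10 (adjusted p = 0.0626). Dll1, a Notch ligand, fell by 1.46 ± 0.50 (-0.72 without replicates 16 and 17) but was not called when any 1 of gd11 replicate 17 and gd14 replicates 10, 11 and 12 was left out (adjusted p 0.0907 to 0.126). Hey1, a Notch target, fell by 0.60, while Hes1, another, was not called (-0.25 ± 0.12).

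Interstitial and stromal progenitor genes were split, with 10 higher and 8 lower of 30 tested. The higher count was 6 without gd14 replicate 10 and 5 without replicate 11 or 12, and without gd11 replicates 16 and 17 the counts were 11 and 12. Nr2f1, the nuclear receptor COUP-TFI, stood at 6979, 6797, 7248, 5480 and 8393 at gd11 and 489, 439 and 497 at gd14. The gd11 arrays were alike and every gd14 array was below 500 (log2 change -3.80 ± 0.13 SE, adjusted p = 1.59e-07). The homeobox cofactors Meis1, Meis2 and Pbx3 fell by 1.81 ± 0.14, 2.09 ± 0.12 and 1.57 ± 0.11 (adjusted p = 2.07e-05, 2.61e-06 and 1.01e-05). Tbx3, a T-box factor, fell by 2.32 and Tbx18, another, by at least 4.71-fold. Ogn, a small proteoglycan, rose from 34.1 to 93 at gd11 to 372 to 519 at gd14 (log2 change 2.64 ± 0.27 SE, adjusted p = 8.02e-05). Tcf21, a factor of stromal progenitors, rose by 1.42 ± 0.45 (0.80 without replicates 16 and 17) but was not called when any 1 of gd11 replicate 17 and gd14 replicates 10, 11 and 12 was left out (adjusted p 0.0687 to 0.104). Nr2f2, the related COUP-TFII of interstitial cells, was not called (-0.22 ± 0.23), nor was Maf (0.15 ± 0.23).

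Matrix genes rose in part. Of 33 tested basement membrane and matrix genes 13 were higher and 3 lower. The collagen VI chains Col6a1, Col6a2 and Col6a3 rose by 3.27 ± 0.30, 2.75 ± 0.24 and 2.13 ± 0.21, and the collagen IV chains Col4a1 and Col4a2, which form basement membranes, by 1.27 ± 0.10 and 1.17 ± 0.10. Col4a1 stood at 5544, 6165, 6779, 7423 and 7093 at gd11 and 15242, 17123 and 15249 at gd14 and Col6a1 at 294, 482, 846, 734 and 780 at gd11 and 5313, 6307 and 5971 at gd14, both with no overlap. Neither Lamc1 nor Lama1, laminin chains of the same membranes, was called (-0.05 ± 0.19 and -0.21 ± 0.16). Postn, periostin, fell by 1.54, and Lama5, another laminin chain, by 0.76, though Lama5 was not called when any 1 of gd11 replicates 17, 18, 19 and 20 and gd14 replicates 10, 11 and 12 was left out (adjusted p 0.0532 to 0.134). Col9a1, a collagen IX chain, fell by 2.31, opposite to Col9a2 (1.97 ± 0.39) and Col9a3, and was not called without gd14 replicate 11 (adjusted p = 0.0577). Without gd11 replicates 16 and 17, 13 were higher and 7 lower, and the median log2 change was 0.14 in place of 0.48. The summed intensity of the list was 59038 to 123482 at gd11 and 138471 to 153184 at gd14, lowest in replicates 16 and 17.

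Of 17 tested contractile genes of peritubular myoid and smooth muscle cells, 4 were higher and 13 not called, or 2 higher without gd14 replicate 11 or 12. The share higher was near the 20.3% of all genes, and 0 were lower, where 17.1% of all genes were. Without gd11 replicates 16 and 17, 4 were higher and 3 lower, and the median log2 change turned from 0.17 to -0.17. Acta2, smooth muscle actin, stood at 1205, 1288, 7418, 3074 and 12232 at gd11 and 10646, 11054 and 10747 at gd14. The gd11 pools spread over 10-fold while the gd14 arrays were alike, and the change of 1.67 ± 0.69 was not called (adjusted p = 0.0889); Acta2 was called without gd11 replicate 20 (adjusted p = 0.0181). Mylk, the myosin light chain kinase, rose by 2.00 ± 0.32 (adjusted p = 0.00127). Myh11, smooth muscle myosin, rose by 1.39 ± 0.41 but was not called when any 1 of gd14 replicates 10, 11 and 12 was left out (adjusted p 0.0602 to 0.0933). Endothelial genes gave 0 higher and 8 lower of 28 tested, and 15 lower without replicates 16 and 17. With 1 array left out, 4 were lower without gd14 replicate 10, 5 without gd11 replicate 18 or 19 or gd14 replicate 11 or 12, and 13 without gd11 replicate 17. Pecam1 and Cdh5, which define endothelium, were not called (0.21 ± 0.33 and -0.09 ± 0.39). Kdr, a further endothelial marker, had a lower mean at gd14, at 1030 ± 543 at gd11 and 336 ± 19.7 at gd14 (mean ± SD). Its gd11 arrays spread widely, and its fitted change and call are not given here. Nrp1, a co-receptor of VEGF, stood at 4082, 2915, 4229, 4364 and 4313 at gd11 and 1184, 1114 and 1174 at gd14 (log2 change -1.75 ± 0.13 SE, adjusted p = 1.65e-05), and Plvap, of fenestrated vessels, fell by 1.39. Lyve1, of lymphatic vessels and macrophages, fell at least 2.35-fold but was not called when any 1 of gd14 replicates 10 and 11 was left out (adjusted p 0.0596 to 0.0831). The list's summed intensity was 20476 to 23239 in replicates 16 and 17, 32588 to 38666 in replicates 18 to 20 and 19650 to 21432 at gd14. The gd14 arrays thus overlapped with replicates 16 and 17 and lay below the other 3.

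Part of the cell division genes fell. Of 33 tested, 15 were lower, 2 higher and 16 not called (median log2 change -0.31). The counts were 14 lower and 3 higher without gd11 replicates 16 and 17, with a median of -0.21. For 17 of the 33 the 2 highest gd11 values were in these 2 replicates, against 21.1% of all genes. Mki67, the proliferation antigen, stood at 5882, 6840, 5885, 6233 and 5565 at gd11 and 4121, 4675 and 4792 at gd14, all gd14 values below all gd11 values (log2 change -0.42 ± 0.09 SE, adjusted p = 0.00467). The largest falls were in Ccnd1, Ccne1 and Rrm2. Ccnd1, cyclin D1 of the G1 phase, stood at 5023, 4482, 3052, 3362 and 3185 at gd11 and 650, 725 and 668 at gd14 (log2 change -2.42 ± 0.17 SE, adjusted p = 9.31e-06), and Ccne1, cyclin E1, and Rrm2, a subunit of ribonucleotide reductase, fell by 1.66 ± 0.14 and 1.36 ± 0.12. Ccnd2 and Cdk4 fell by 1.29 ± 0.14 and 0.70 ± 0.07. Mitotic genes such as Cdk1 (-0.01 ± 0.08), Ccnb2 (0.02 ± 0.14) and Cdc20 (0.05 ± 0.08) were not called. Mybl2 and Bub1 were the 2 called higher, by 0.55 ± 0.17 and 0.42 ± 0.13; Mybl2 was not called when any 1 of gd11 replicates 18, 19 and 20 and gd14 replicates 10 and 11 was left out (adjusted p 0.0505 to 0.138) and Bub1 was not called when any 1 of gd11 replicates 18, 19 and 20 and gd14 replicates 10, 11 and 12 was left out (adjusted p 0.054 to 0.101).

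Cell cycle inhibitors gave 3 higher and 3 lower of 12 tested, where 20.3% and 17.1% of all genes were. Cdkn2b, the inhibitor p15, stood at 17.9, 56.6, 15.2, 16.5 and 25.2 at gd11 and 278, 192 and 297 at gd14, below the background line on every gd11 array and at least 3.75-fold higher (log2 change 2.56 ± 0.31 SE, adjusted p = 0.000228). Cdkn1c, the inhibitor p57 and an imprinted gene, went the other way, at 12884, 12457, 16243, 14225 and 16758 at gd11 and 3627, 4576 and 4196 at gd14 (log2 change -1.80 ± 0.12 SE, adjusted p = 6.53e-06). Cdkn1a, p21, and Btg1, an antiproliferative factor, fell by 1.49 ± 0.34 and 0.48 ± 0.07. Cdkn2c, the inhibitor p18, and Rbl2, a relative of the retinoblastoma protein, rose by 0.86 ± 0.25 and 0.51 ± 0.15, but Cdkn2c was not called when any 1 of gd14 replicates 11 and 12 was left out (adjusted p 0.0846 to 0.098) and Rbl2 was not called when any 1 of gd11 replicates 17 and 20 and gd14 replicates 10, 11 and 12 was left out (adjusted p 0.0512 to 0.0995), nor was it called without replicates 16 and 17 (0.38, adjusted p = 0.0585). Cdkn1b, p27, was not called at 0.16 ± 0.19, and Rb1, the retinoblastoma gene, was not called at 0.46 ± 0.26 but was called higher without replicates 16 and 17 (0.78, adjusted p = 0.000391); it was called without gd11 replicate 16 (adjusted p = 0.00511).

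The promoters of Mki67 and Mcm2 (RefSeq, GRCm38.p6, minus strand, chr7:135716380-135716629 and chr6:88898781-88899030) are shown because both genes were called lower with all arrays and when any 1 array was left out, and because the cell cycle homology motif TTTGAA, marked in capitals where it occurs in the 250 bases before the start, is present in each.
Mki67: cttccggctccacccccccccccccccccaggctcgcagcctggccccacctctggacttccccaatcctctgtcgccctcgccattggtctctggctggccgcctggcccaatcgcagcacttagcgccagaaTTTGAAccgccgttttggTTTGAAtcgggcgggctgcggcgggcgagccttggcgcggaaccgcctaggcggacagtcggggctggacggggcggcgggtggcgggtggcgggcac
Mcm2: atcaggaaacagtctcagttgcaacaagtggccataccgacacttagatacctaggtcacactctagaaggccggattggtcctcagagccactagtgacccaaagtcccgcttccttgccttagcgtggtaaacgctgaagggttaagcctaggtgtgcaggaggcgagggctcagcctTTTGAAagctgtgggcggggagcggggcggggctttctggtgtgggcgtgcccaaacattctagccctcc
It begins at bases -116 and -98 in Mki67 and at base -70 in Mcm2. With both strands searched, it was found in 10 of 26 cell division genes with a window, 35.7% of 28 windows against 11.8% of all. It was in 5 of the 11 genes called lower that have a window (Cenpa, Mcm2, Mki67, Plk1 and Top2a). The other genes with it, Aurka, Bub1b, Ccnb2, Cdc20 and Cdk1, were not called lower. The E2F motif TTTCCCGC was found in 4 of the 26 genes (Cdc6, Cdk2, Mcm3 and Mcm7), 14.3% of windows against 1.93%. Of the 11 called lower, Cdc6 alone held the E2F motif. These matches are letters in a window and not shown to be bound.

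Hox genes, which set position along the body axis, fell: 19 of 26 tested were lower and 0 higher, with a median log2 change of -2.34. Hoxb6 stood at 1682, 1171, 997, 1076 and 899 at gd11 and 26.7, 13.3 and 32.7 at gd14, below the background line on each gd14 array and at least 15.4-fold lower (log2 change -4.66 ± 0.22 SE, adjusted p = 1.15e-06). Hoxb3 and Hoxa5 fell by 4.38 ± 0.27 and 4.23 ± 0.23, and Hoxb5 and Hoxa7 at least 8.83-fold and 7.4-fold. Hoxa9 stood at 7633, 6908, 2282, 2377 and 2415 at gd11 and 168, 196 and 133 at gd14, with replicates 16 and 17 the brightest (log2 change -4.32 ± 0.43 SE, adjusted p = 7.48e-05). For 15 of the 26 the 2 highest gd11 values were in replicates 16 and 17; without them 20 were lower, with a median of -2.00. Hoxd8, Hoxd9 and Hoxd10 were among the 7 not called. Hoxd8 stood at 1984, 1130, 1734, 1623 and 1354 at gd11 and 1608, 1571 and 1901 at gd14 (0.13 ± 0.17). Hoxd9 and Hoxd10 had changes of 0.58 ± 0.31 and 1.43 ± 1.02 with all arrays and were called higher without replicates 16 and 17 (adjusted p = 0.000319 and 0.00315); Hoxd9 was called without gd11 replicate 16 (adjusted p = 0.0123) and Hoxd10 was called without gd11 replicate 16 (adjusted p = 0.0122).

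Growth genes of the embryo fell as well, 9 of 19 tested, with 2 higher, or 12 lower and 2 higher without gd11 replicates 16 and 17. Igf2, the imprinted growth factor, stood at 14711, 20649, 29955, 26317 and 25341 at gd11 and 9265, 10816 and 10592 at gd14 (log2 change -1.15 ± 0.20 SE, adjusted p = 0.00169). Hmga2, a chromatin protein of growing embryos, stood at 11589, 14043, 22561, 20907 and 21130 at gd11 and 4975, 5012 and 6171 at gd14 (log2 change -1.70 ± 0.21 SE, adjusted p = 0.000284). Both were lowest of the gd11 arrays in replicate 16, and for both the stages did not overlap. Grb10, an imprinted growth inhibitor, and Igf2bp3, an RNA-binding protein of embryos, fell by 1.07 ± 0.09 and 0.90 ± 0.07. Igf2bp1, its relative, fell by 1.96 ± 0.56 but was not called without gd14 replicate 12 (adjusted p = 0.0841). The 2 that rose, Lin28a at 2.16 ± 0.35 and Trim71 at 1.69 ± 0.15, are also expressed in germ cells.

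Hbb-bh1 and Hba-x, embryonic globins, had the largest falls among blood genes. Hbb-bh1, an embryonic beta-like globin, stood at 24609, 26161, 23706, 26930 and 26854 at gd11 and 575, 727 and 1592 at gd14. The gd11 arrays were close to each other and the highest gd14 array was at 1592 (log2 change -4.84 ± 0.26 SE, adjusted p = 1.86e-06). Hba-x, the embryonic alpha-like globin, stood at 24003, 26707, 25606, 23833 and 23866 at gd11 and 5278, 6773 and 8320 at gd14 (log2 change -1.89 ± 0.12 SE, adjusted p = 6.53e-06). Hbb-y, another embryonic globin, was not called, at 31865 to 38281 at gd11 and 31287 to 37955 at gd14; values of that size are near the top of the scale, where arrays had maxima of 39857 to 50373. Alas2, the erythroid enzyme of haem synthesis, rose by 1.04 ± 0.12, while the erythroid factors Klf1 and Tal1 fell by 1.24 ± 0.16 and 1.54 ± 0.20. In all, 7 of 12 tested were lower and 1 higher. The list's summed intensity was 85538 to 91340 at gd11 and 41444 to 46748 at gd14. Of 22 tested macrophage and leukocyte genes 9 were lower and 0 higher, and 13 were lower without replicates 16 and 17 and 5 without gd14 replicate 10. Ptprc, the common leukocyte antigen, fell at least 2.28-fold, and C1qb, a complement subunit of macrophages, and Lcp1, a leukocyte actin-bundling protein, fell by 1.28 ± 0.23 and 1.25 ± 0.15.

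Many neural genes were higher at gd11, as were many mesonephros and duct genes, and both groups divided its arrays. Of 21 tested neural genes 11 were lower and 0 higher, or 6 lower without gd14 replicate 10 or 12 and 7 without replicate 11. For 19 of them the 2 highest gd11 values were in replicates 16 and 17, against 21.1% of all genes. Nefl and Nefm, neurofilament genes, stood at 17277, 12117, 1611, 914 and 2203 at gd11 and 7.04, 79.4 and 69.2 at gd14 and at 15885, 9996, 2632, 2013 and 4607 at gd11 and 117, 103 and 94.3 at gd14. Both were above the background line in replicates 18 to 20 as well, and fell by 5.84 ± 0.92 and 5.37 ± 0.59. Pou3f3, a neural transcription factor, fell at least 21.8-fold. Ina, another neurofilament gene, stood at 10284, 4612, 95.4, 65 and 126 at gd11 and 364, 336 and 303 at gd14, so that gd14 lay between the groups of gd11 arrays (-0.74 ± 1.52, no call). Without replicates 16 and 17, Ina was called higher (1.63, adjusted p = 0.000228), as were Sox3 (0.98), Map2 (0.60) and Mapt (0.69), and 13 neural genes were called lower. With all arrays Sox3, Map2 and Mapt were not called, at -0.34 ± 0.92, -0.58 ± 0.77 and -0.66 ± 0.91.

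Mesonephros, duct and coelomic epithelium genes gave 10 lower and 1 higher of 20 tested, and 16 lower without replicates 16 and 17. Cdh16, the cadherin of kidney and duct epithelium, stood at 307, 868, 2057, 3645 and 1436 at gd11 and 47.9, 37.3 and 58.3 at gd14. Replicates 18 to 20 were the brightest, and every gd14 array was below the background line, at least 16.7-fold lower (log2 change -4.18 ± 0.63 SE, adjusted p = 0.000813). Gata3, a factor of the nephric duct and of sympathetic cells, and Tfap2b fell at least 3.74-fold and 6.69-fold. Nphs1, nephrin, was the 1 member called higher (1.26 ± 0.36); it was not called when any 1 of gd14 replicates 10 and 11 was left out (adjusted p 0.0622 to 0.109). Epithelial genes that germ or Sertoli cells can also express, Cdh1 and Epcam, were not called with all arrays (0.59 ± 0.45 and -0.11 ± 0.44), and Epcam was called lower without replicates 16 and 17 (-0.71). Among adrenal and chromaffin genes 3 of 13 were lower, near the 17.1% of all genes, or 5 without gd11 replicates 16 and 17. Of these Chgb, a granin of chromaffin cells, fell at least 3.59-fold. Dbh, an enzyme of noradrenaline synthesis, fell by 1.67 ± 0.53 but was not called when any 1 of gd11 replicates 18, 19 and 20 and gd14 replicates 10, 11 and 12 was left out (adjusted p 0.0508 to 0.135). Hand2, of sympathetic precursors, stood at 189, 421, 2291, 1573 and 3526 at gd11 and 415, 290 and 302 at gd14, brightest in replicates 18 to 20; it was not called with all arrays (-1.56 ± 0.80), was called lower without replicates 16 and 17 (-2.74) and was called without gd11 replicate 16 (adjusted p = 0.0133). Of striated muscle and liver genes 3 of 14 tested were lower, also near the share of all genes. They were Actc1, cardiac actin (-3.31 ± 0.45), and the muscle factors Pax3 (at least 2.52-fold) and Myog (at least 1.19-fold). Pax3 was not called when any 1 of gd11 replicates 17 and 19 and gd14 replicates 10, 11 and 12 was left out (adjusted p 0.0635 to 0.139), and Myog was not called when any 1 of gd11 replicates 17 and 19 and gd14 replicates 10, 11 and 12 was left out (adjusted p 0.061 to 0.0849). Without replicates 16 and 17 neither was called (fitted log2 changes -1.22 and -1.47, adjusted p = 0.0551 and 0.0773). The liver genes Alb, Apoa1 and Ttr were among 8 of the list that did not pass the filter.

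**Figure D4:**
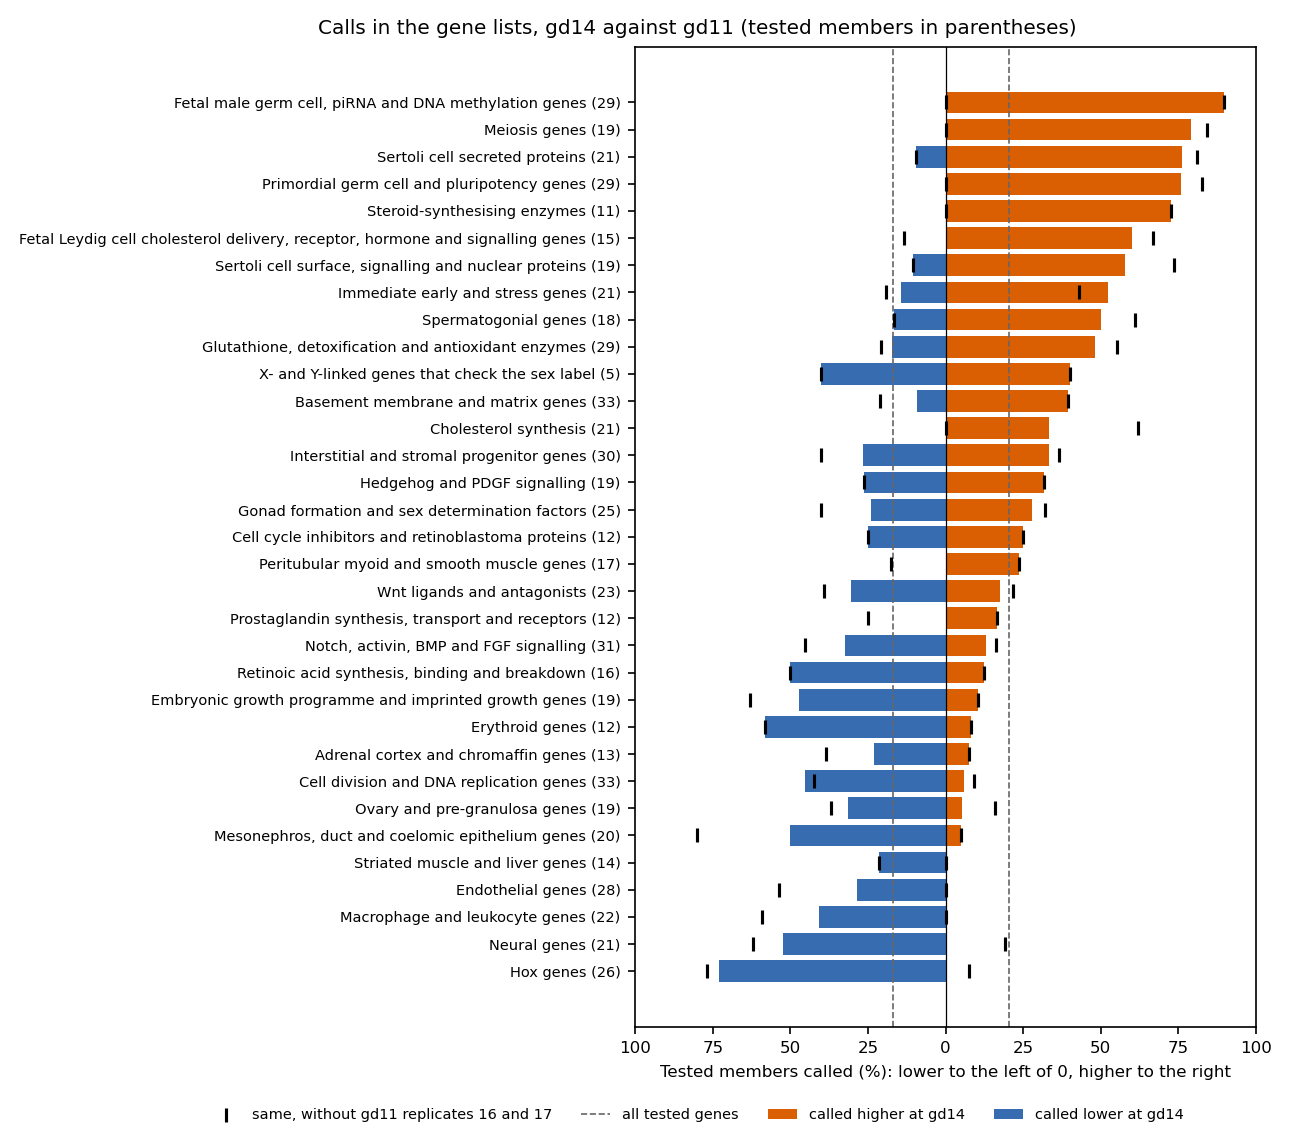
Share of the tested members of each of 33 gene lists called higher (right) or lower (left) at gd14, in percent, with the number tested in parentheses; black ticks give the share without gd11 replicates 16 and 17 and dashed lines the shares of all genes, 20.3% higher and 17.1% lower. The male germ cell list reaches 26 of 29 to the right and the Hox list 19 of 26 to the left; the ticks lie farthest from the bars for the cholesterol and mesonephros lists.

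Detoxification and stress genes also differed between the stages. Gstm6, a glutathione transferase, stood at 5.22, 21, 70.7, 50.8 and 16.1 at gd11 and 3529, 2271 and 2734 at gd14, at least 41.7-fold higher (log2 change 5.82 ± 0.37 SE, adjusted p = 5.88e-06). Its relatives also rose, Gsta2 at least 18-fold and Gstm2 and Gstm1 by 3.61 ± 0.39 and 3.03 ± 0.26; transferases of this family are alike in sequence, and cross-hybridisation between them was not tested. On the other side Txnrd1, a thioredoxin reductase, fell by 1.40 ± 0.14, and Prdx2 and Cat, which remove peroxide, by 0.50 ± 0.06 and 0.50 ± 0.09. The list gave 14 higher and 5 lower of 29 tested. Sod1, among the higher, had another probe set called lower, so that its direction depends on the probe set. Of the 6481 genes with over 1 tested probe set, 111 had probe sets called in opposite directions. The inducible heat shock genes Hspa1a and Hspa1b, near-identical copies, stood at 3.2, 34.7, 22.2, 73.7 and 80.4 at gd11 and 661, 644 and 639 at gd14 and at 221, 344, 420, 496 and 429 at gd11 and 3113, 3871 and 3826 at gd14. Neither overlapped between the stages (3.54 ± 0.42 and 3.20 ± 0.22, adjusted p = 0.000207 and 1.01e-05), and Hspb1, a small heat shock protein, rose by 2.51 ± 0.18. Of 21 immediate early and stress genes 11 were higher and 3 lower, with 7 higher without gd14 replicate 10 or 12. The counts were 9 and 4 without gd11 replicates 16 and 17. Nr4a1, Ier3 and Egr1, transcription factors and an early response gene, rose by 1.76 ± 0.17, 1.77 ± 0.18 and 1.21 ± 0.14, Myc, Ier2 and Jun fell by 1.06, 0.82 and 0.56 on the log2 scale, and Fos was not called (-0.18 ± 0.22). In the prostaglandin list 2 of 12 tested were higher, near the 20.3% of all genes. They were Ptgds and Ptges, a prostaglandin E synthase (0.65 ± 0.18). Ptges was not called when any 1 of gd14 replicates 11 and 12 was left out (adjusted p 0.0716 to 0.0864). With all 8 arrays 0 of the list were called lower, but 3 were without gd11 replicates 16 and 17 and 2 after quantile normalization.

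The sex label was checked with X- and Y-linked genes. Xist, the RNA of the inactive X chromosome, stood at 20.7, 52.9, 62.5, 64.4 and 53.5 at gd11 and 91.6, 62.7 and 86.6 at gd14 and did not pass the filter. The Y-linked genes Eif2s3y, Uty and Kdm5d were well above the background line on all 8 arrays, at 593 to 917 at gd11 and 1733 to 2211 at gd14, 275 to 529 at gd11 and 331 to 511 at gd14 and 608 to 892 at gd11 and 491 to 615 at gd14. Eif2s3y rose by 1.34 ± 0.15, Uty was not called (0.10 ± 0.25), and Kdm5d fell by 0.45 ± 0.15 but was not called when any 1 of gd11 replicates 17, 18 and 20 and gd14 replicates 10, 11 and 12 was left out (adjusted p 0.063 to 0.159). Usp9y, a Y-linked ubiquitin protease, stood at 65.4, 78.9, 5.71, 42.6 and 24 at gd11 and 699, 665 and 678 at gd14, with 4 gd11 arrays below the line (log2 change 3.56 ± 0.38 SE, adjusted p = 0.000116). Uba1y, a Y-linked ubiquitin-activating enzyme, rose by 4.10 ± 0.24.

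Outside the lists, the 15 largest rises and falls were taken among called genes whose stages did not overlap and that were called again without replicates 16 and 17. Germ cell genes stood among the rises. Stk31, a Tudor domain kinase of germ cells, stood at 5.64, 39.8, 48.6, 18.6 and 17.1 at gd11 and 4981, 4123 and 4412 at gd14, at least 67-fold higher (log2 change 6.62 ± 0.29 SE, adjusted p = 5.84e-07). Tex14, of the bridges between germ cells, stood at 71.6, 86.2, 79.7, 59.8 and 83 at gd11 and 4476, 3990 and 4476 at gd14 (log2 change 5.47 ± 0.14 SE, adjusted p = 3.47e-08). Gpat2, an acyltransferase of the piRNA pathway, rose at least 34.4-fold, Adad1, an RNA-binding protein of the testis, at least 10.4-fold, Btbd18, a piRNA transcription regulator, at least 9.78-fold, and Tcfl5, a transcription factor of spermatogenesis, by 4.44 ± 0.15. Of the others, 4930447C04Rik rose at least 21.3-fold, Kazald1 16.7-fold, Pramel13 12.9-fold, Serpinb1a 10.9-fold and Gm884 10.6-fold. Cstdc1, Prss35 and Hao2 had log2 changes of 4.37, 4.28 and 4.25, and Uba1y is given above.

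Among the falls outside the lists, Foxd1, a factor of kidney stroma, stood at 1516, 2611, 2566, 1715 and 1899 at gd11 and 50.7, 25.7 and 34.6 at gd14. It was bright on every gd11 array and below the background line on every gd14 array, at least 27.3-fold lower (log2 change -5.12 ± 0.21 SE, adjusted p = 5.1e-07). Shisa3 stood at 645, 782, 4051, 1893 and 4776 at gd11 and 44.1, 51.4 and 37.5 at gd14, brightest in replicates 18 and 20, and fell at least 24.3-fold (log2 change -4.78 ± 0.62 SE, adjusted p = 0.000342). Hoxb5os, transcribed opposite Hoxb5, fell by 4.57 ± 0.36; strand cannot be judged from these values. Cldn8 and Calb1, genes of distal kidney and duct epithelium, fell, at least 8.21-fold and by 4.15 ± 0.55 on the log2 scale, and were lowest of the gd11 arrays in replicate 16. Insm1, Tagln3, Dclk1 and Rtn1, neural genes, were highest in replicates 16 and 17 and fell at least 7.1-fold, 7.45-fold, 10.4-fold and 4.67-fold. Their fitted log2 changes were -4.47, -4.15, -3.58 and -3.41 with all arrays, and without these 2 they were -3.28, -2.67, -2.73 and -2.13. Fndc3c1 fell by 4.06 on the log2 scale, Car3, a carbonic anhydrase, by 3.76, and Col2a1, the collagen of cartilage, by 3.34, with a change of -2.28 without the 2. Pantr1, Mab21l2 and Uncx were below the background line on every gd14 array and fell at least 11-fold, 7.01-fold and 2.92-fold. The fitted changes of Pantr1 and Uncx without the 2 arrays were -2.67 and -2.12. Uncx was not called when any 1 of gd14 replicates 10, 11 and 12 was left out (adjusted p 0.0695 to 0.0729).

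Of 2352 genes above the 90th percentile of their arrays at both stages, 401 were higher and 584 lower, where 20.3% and 17.1% of all genes were. The largest rises were Chchd10, a mitochondrial protein (2.65 ± 0.42), Bnc2, a zinc finger protein (2.50 ± 0.38), Akr1cl, an aldo-keto reductase (2.44 ± 0.52), Fdx1, and Rps4l, a ribosomal protein gene (1.80 ± 0.13). Chchd10, Bnc2 and Akr1cl were each lowest in gd11 replicate 16. The largest falls were Sox11, of neural and mesenchymal progenitors (-1.99 ± 0.18), Nnat, neuronatin (-1.91 ± 0.19), Hba-x, Cdkn1c and Hmga2.

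The gd12 arrays, from pools of 5, were uneven: Xist stood at 2616 in replicate 14 and at 87.7 and 40.6 in replicates 13 and 15, and Chgb at 2404 in replicate 13 and at 239 and 20.3 in replicates 14 and 15. The part of these differences in the gd12 means was not tested. Over the 6 stages of the series, gd14 was the highest stage mean for some of these genes and a step on the way for others. Pou5f1 stood at 144 ± 55.7 at gd11, 906 ± 555 at gd12, 2264 ± 127 at gd14, 914 ± 301 at gd16, 362 ± 79.8 at gd18 and 190 ± 85.8 at pnd2 (mean ± SD, n = 5 at gd11 and 3 at every other stage). Its gd14 mean was the highest of the 6, and the same held for Dppa3, Ddx4, Sycp3 and Dazl, of which Dppa3 was at 751 ± 611 by gd16. Dnmt3l stood at 10.4 ± 6.43 at gd11, 7.94 ± 3.27 at gd12, 1221 ± 221 at gd14, 2986 ± 324 at gd16, 1256 ± 767 at gd18 and 29.1 ± 19.1 at pnd2, highest at gd16. Cyp17a1 was likewise highest at gd16, at 26707 ± 2834, while Gstm6, at 9133 ± 763, had its highest mean at pnd2. Amh was about as high at gd18, at 2353 ± 828, as at pnd2, at 2389 ± 471. Among the genes that fell, Crabp1, Hoxa9, Ccnd1, Nr2f1 and Cdh16 had means at gd12 between those of gd11 and gd14, and Hbb-bh1 went from 965 ± 548 at gd14 to 118 ± 75.5 at gd16.

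**Figure D5:**
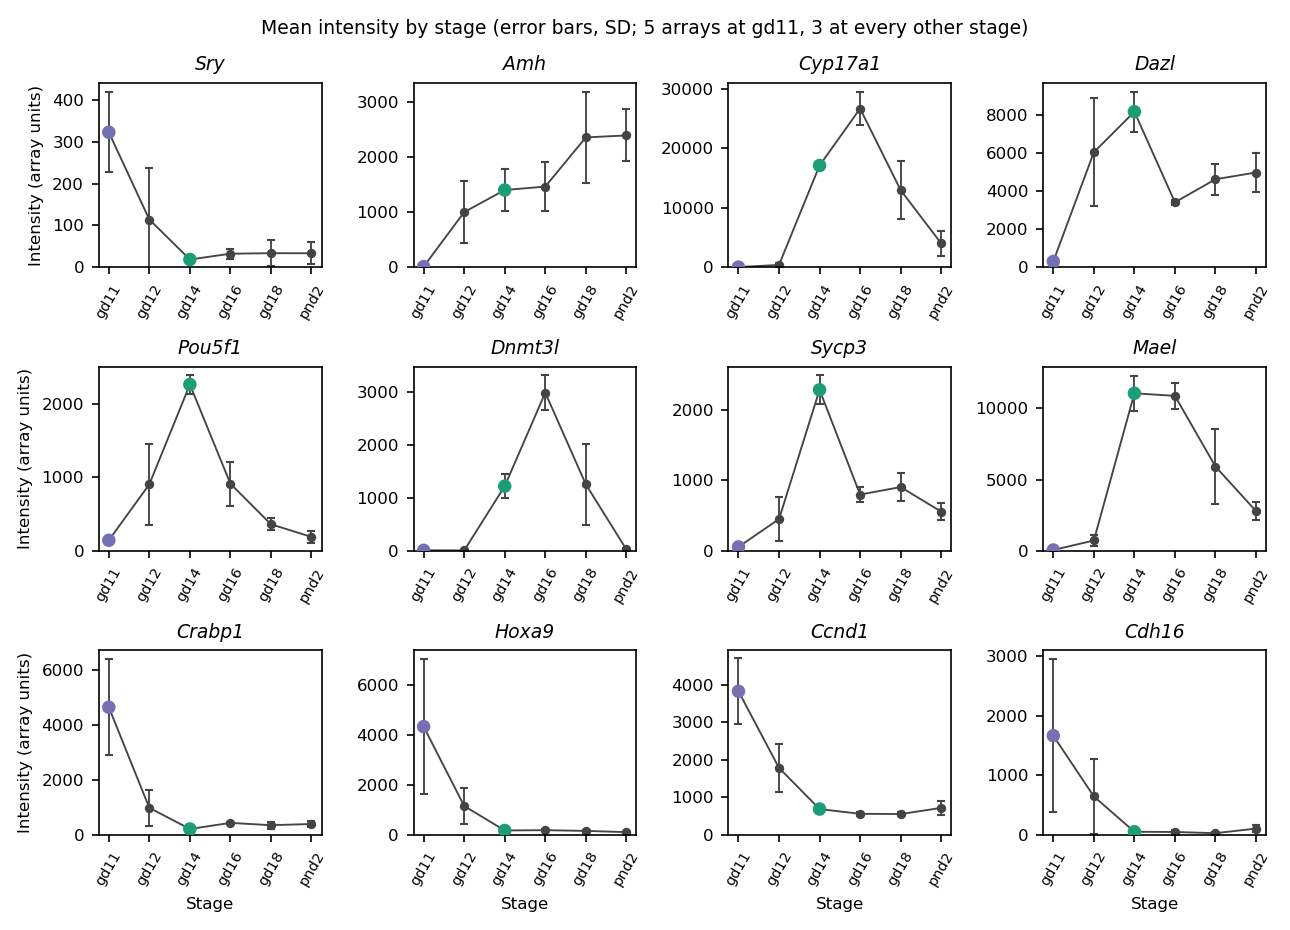
Mean intensity (array units) with SD error bars over the 6 stages for 12 genes, from 5 arrays at gd11 and 3 at every other stage; the coloured points are gd11 and gd14, and each panel has its own scale from 0. Pou5f1, Dazl and Sycp3 peak at gd14, Cyp17a1 and Dnmt3l at gd16, and Sry, Crabp1, Hoxa9, Ccnd1 and Cdh16 are highest at gd11.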

How the data were processed

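Biotin-labelled total RNA of the testes was hybridised to Affymetrix Mouse Genome 430 2.0 arrays. The authors deposited 1 intensity per probe set and array, on a linear scale, made with GCOS per the submitters' processing notes; all 21 arrays had been scaled to a common trimmed mean. The 3 gd14 and 5 gd11 arrays were grouped by their labels.

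Of 45101 probe sets, 34945 name a single gene, 932 several and 9160 none in the platform table, and 64 are controls; 34741 of the symbols were matched by Entrez identifier in the RefSeq gene table and 204 kept as given. A single-gene probe set was kept when at least 3 of the 8 arrays had it above the background line (24560). The values log2(intensity + 22.4), the pseudocount being the 20th percentile of all testis values, were fitted with limma 3.58.1 (R 4.3.3, lmFit, then eBayes with a trend), with Benjamini-Hochberg adjustment and a threshold of 0.05. A gene was read at its probe set with the highest mean (13220 genes). The lower bound on a fold is the brighter stage's mean log2 intensity less the dimmer stage's, with each dim value raised to its array's background line. The array number limits the precision. The procedure was tested on simulated data with independent noise on each array. The simulation held no split between gd11 arrays, so it cannot show how the procedure handles that split.

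Named are the 4 markers, defining members and, in each list, at least the 3 largest called rises and falls; the 15 largest rises and falls outside the lists; 5 each among bright genes; and neural genes. The members and lists were chosen with earlier results of these data known. The other 12 testis arrays enter the pseudocount, the 71.4 line, the levels across stages and the alternative fits with 20 or 17 testis arrays; the newborn reference was left out. Alternatives were other arrays in the fit, normalization, pseudocount, filter, array weights and probe set choice. Promoters are RefSeq's for GRCm38.p6, with a window for 10629 of the 13220 genes.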

Additional observations from a re-analysis of the deposited data

Results flagged for a closer look

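Among 295 of the tested genes named here (Kdr was not checked), 19 (6.44%) had a gd11 array that stood apart from the other 4 by Dixon's criterion. The gap of that array to the nearest of the other 4, divided by the range of all 5, exceeded Dixon's 95% critical value. Gap and range were taken on the log2 scale of the changes, with the pseudocount added, whereas the levels listed below are intensities. By construction that criterion marks about 1 in 20 groups of like samples by chance. The array was replicate 16 in 11 cases, replicate 19 in 5, replicate 17 in 2 and replicate 18 in 1.

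Replicate 16 was the lowest gd11 array for Aldh1a1, at 121 against 750 to 1419 on the other 4, and for Inha, at 234 against 598 to 782. It was also lowest for Inhba, at 12.4 against 179 to 369, and for Rspo1, at 177 against 563 to 870. The glutathione transferase genes Gstm1 and Gstm2 stood at 662 against 1332 to 1647 and at 418 against 1255 to 1891 there. Among germ cell genes it was lowest for Dmc1, at 17.8 against 40.4 to 50.7, and for Morc1, at 4.63 against 47.6 to 69.9, all below the background line. Ier3 stood at 102 against 157 to 180. The same array was highest for Ret, at 872 against 267 to 363, and for Amh, at 30.5 against 2.89 to 7.45, where all values lay below the background line.

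Replicate 19 was highest for Gdnf, at 157 against 2.86 to 8.2, the 1 value of this group above the background line. It was also highest for Dnmt3l at 21.8 against 6.82 to 8.22, for Fshr at 30.7 against 3.26 to 7.92 and for Spo11 at 24.5 against 3.94 to 7.65, all below the line, and lowest for Mcm2 at 3798 against 4376 to 4577. Replicate 17 was lowest for Nrp1, at 2915 against 4082 to 4364, and highest for Piwil1, at 15.7 against 2.01 to 5.27. Replicate 18 was lowest for Igf2bp1, at 1021 against 2867 to 4133.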

How the results depend on the processing

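Under every alternative fitted, the counts of higher and lower genes stayed within 1.5 times the main counts of 2688 and 2260, and 0 genes were called in the opposite direction. The higher count was 3200 with all 20 testis arrays, 3190 with array weights, 2645 after quantile normalization and 2142 when all 8 arrays had to pass the filter; the lower count was 2722, 2841, 2390 and 1971. With 1 array left out the counts ran from 1957 to 2862 and from 1565 to 2555, lowest without a gd14 array. The main calls shared with each fit ranged from 3470, without gd14 replicate 10, to 4948. Among named genes, Ina (1.63), Map2 (0.60), Mapt (0.69) and Sox3 (0.98) turned from a negative change that was not called to a called rise without gd11 replicates 16 and 17; the cause was not tested. The filter on all 8 arrays removes genes seen at 1 stage, and under it the higher count was 5 in place of 26 for male germ cell genes, 5 in place of 15 for meiosis, 7 in place of 16 for Sertoli secreted proteins, 5 in place of 11 for other Sertoli genes and 4 in place of 8 for steroid enzymes, and the lower count 9 in place of 19 for Hox genes. No paired analysis was possible because the labels tie no gd11 array to a gd14 array. Probe sets near background limit what can be said of dim genes.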

Other observations

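Fitted with all 28944 non-control probe sets that passed the filter, 4384 without a single gene name included 475 (10.8%) called higher and 446 (10.2%) called lower at gd14 by limma. Probe set 1448975_s_at stood at 52.8, 191, 120, 70.9 and 73.3 at gd11 and 5353, 1842 and 7962 at gd14 (log2 change 5.22 ± 0.46 SE, adjusted p = 3.96e-05), and 1425101_a_at at 12.6, 85.4, 212, 28.8 and 22 at gd11 and 3057, 2609 and 3240 at gd14 (5.36 ± 0.54 SE, adjusted p = 8.01e-05). In the other direction, 1437086_at stood at 860, 518, 157, 83.2 and 414 at gd11 and 10.5, 1.92 and 19.7 at gd14 (-3.36 ± 0.61 SE, adjusted p = 0.00255). None of these was tied to a gene.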
